A study of Mus musculus with 3 samples.

Results

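The 9 genes described here belong to the Notch pathway or to the secretory fate programme it controls in the gut epithelium. They are the receptors Notch1 and Notch2, the ligands Dll1, Dll4 and Jag1, the target Hes1, and the secretory regulators Atoh1, Spdef and Gfi1. They were chosen by name from 32285 genes, with earlier results of these data known. They were read in mouse small intestinal organoids, which are epithelial cells grown in a gel, with 1 droplet-based single-cell RNA-seq library for each of 3 genotypes.

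All mice were on the C57BL/6 background and received 2 doses of 2 mg tamoxifen at 7 to 8 weeks of age. For WT the labels state no allele. LApc mice were Lgr5-CreERT2;Apc fl/fl, so that Cre, active after tamoxifen in Lgr5-expressing stem cells, should remove Apc, a brake on Wnt signalling. LApcL mice carried Lef1 fl/fl in addition, for the Wnt transcription factor Lef1. Analysis came 21 days after tamoxifen in WT and LApcL but 29 days after it in LApc, and the organoids were taken at day 6 of passage 3. With 1 library per genotype, genotype, mouse, culture and days after tamoxifen cannot be told apart, and no difference below has a replicate check. The share of cells in which the floxed exons were lost was not measured.

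Each counted molecule carried a UMI (unique molecular identifier), and each droplet, usually 1 cell, a barcode. Barcodes were used if they occurred in 1 library only, held at least 10000 UMIs and had at most 20% of them from mitochondrial genes. These were 1208 of 11411 deposited barcodes for WT, 2161 of 10706 for LApc and 1931 of 12068 for LApcL, with 48895147, 90864428 and 80504226 UMIs and medians of 38074, 34377 and 32584 UMIs per barcode. Another 3195 barcodes occurred in all 3 libraries and were left out. The kept barcodes were epithelial: 6 epithelial markers summed to 3871, 6671 and 7228 UMIs per 1e6 (CPM), against 1.19 to 1.43 CPM for 4 immune markers and 0.0818 to 0.298 CPM for 4 fibroblast markers. The 5 endothelial markers summed to 1.31 CPM for WT, 18.2 for LApc and 5.37 for LApcL. Most of the LApc sum was Flt1 (1063 UMIs) and Cdh5 (433 UMIs), while the defining marker Pecam1 had 49, 145 and 85 UMIs.

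Notch receptors are bound by ligands on neighbouring cells and are then cut, and the freed intracellular part joins the DNA-binding protein RBPJ to switch on targets such as Hes1. Hes1 is a repressor that keeps the secretory master regulator Atoh1 off, so that cells with active Notch become absorptive or stay progenitors while their Atoh1-expressing neighbours, which carry the ligands, become goblet, Paneth, enteroendocrine or tuft cells. Downstream of Atoh1, Spdef promotes goblet and Paneth cell maturation and Gfi1 holds back the enteroendocrine programme.

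RefSeq (build GRCm38.p6) gave the sequence before the transcription start for 8 of the 9 genes, Hes1 excepted, in 10 windows of 250 bases. The 4 windows printed in full, 5′ to 3′ on the gene's strand, belong to the genes with the largest log2 ratios of LApcL against LApc. Capitals mark every match, on either strand, to 4 motifs that were searched: the RBPJ core TGGGAA, the TCF/LEF core CTTTGA, the N-box CACNAG to which Hes proteins bind, and the E-box CAGNTG of the type Atoh1 binds.
Atoh1, chr6:64728875-64729124, forward strand: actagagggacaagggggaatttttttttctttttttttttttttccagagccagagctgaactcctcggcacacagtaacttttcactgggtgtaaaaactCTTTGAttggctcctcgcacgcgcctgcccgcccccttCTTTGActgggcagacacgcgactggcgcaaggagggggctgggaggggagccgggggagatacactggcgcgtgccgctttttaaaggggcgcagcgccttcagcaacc
Spdef, chr17:27728952-27729201, reverse strand: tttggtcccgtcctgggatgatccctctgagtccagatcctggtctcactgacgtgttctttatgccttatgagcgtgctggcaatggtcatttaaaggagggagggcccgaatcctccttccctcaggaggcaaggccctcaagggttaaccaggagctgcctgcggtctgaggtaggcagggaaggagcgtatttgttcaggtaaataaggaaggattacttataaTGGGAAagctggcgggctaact
Notch2, chr3:98013288-98013537, forward strand: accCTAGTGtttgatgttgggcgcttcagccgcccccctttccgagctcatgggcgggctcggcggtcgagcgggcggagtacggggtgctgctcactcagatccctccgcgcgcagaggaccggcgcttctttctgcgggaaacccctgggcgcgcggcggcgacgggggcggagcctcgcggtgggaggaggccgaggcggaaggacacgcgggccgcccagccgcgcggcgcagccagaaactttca
Dll1, the upstream of its start sites, chr17:15376933-15377182, reverse strand: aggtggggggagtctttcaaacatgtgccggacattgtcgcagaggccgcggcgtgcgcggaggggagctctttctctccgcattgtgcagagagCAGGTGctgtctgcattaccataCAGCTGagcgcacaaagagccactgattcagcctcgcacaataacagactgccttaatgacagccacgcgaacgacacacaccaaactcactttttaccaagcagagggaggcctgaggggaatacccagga
The Atoh1 window held 2 TCF/LEF cores, the Spdef window 1 RBPJ core, the Notch2 window 1 N-box on the opposite strand (CTAGTG) and the Dll1 window 2 E-boxes. No matches overlapped. Over the 10 windows, 1 held an RBPJ core, 1 a TCF/LEF core, 3 an N-box and 3 an E-box. Among all 32851 such windows of 27025 genes, 21.6%, 13.8%, 36.7% and 44.8% did. Gene positions below are on the same assembly, GRCm38. A match is a string of letters and was not shown to be a binding site.

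Among the receptors, both Notch1 and Notch2 had higher levels in the Apc-targeted libraries than in WT, and the gap was widest for Notch2. Notch1 (ENSMUSG00000026923, chromosome 2, 26457903 to 26516663, reverse strand) had 700 UMIs for WT, 3143 for LApc and 3192 for LApcL, which is 14.3, 34.6 and 39.7 CPM. Notch2 (ENSMUSG00000027878, chromosome 3, 98013527 to 98150361, forward strand) had 76, 1416 and 2292 UMIs, which is 1.55 CPM (1.22 to 1.95), 15.6 CPM (14.8 to 16.4) and 28.5 CPM (27.3 to 29.7). Ranges in brackets are exact intervals at the 95% level and cover counting error only. For both receptors the 3 libraries stood in the same order, WT lowest and LApcL highest, with no overlap of the intervals.

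**Figure D1:**
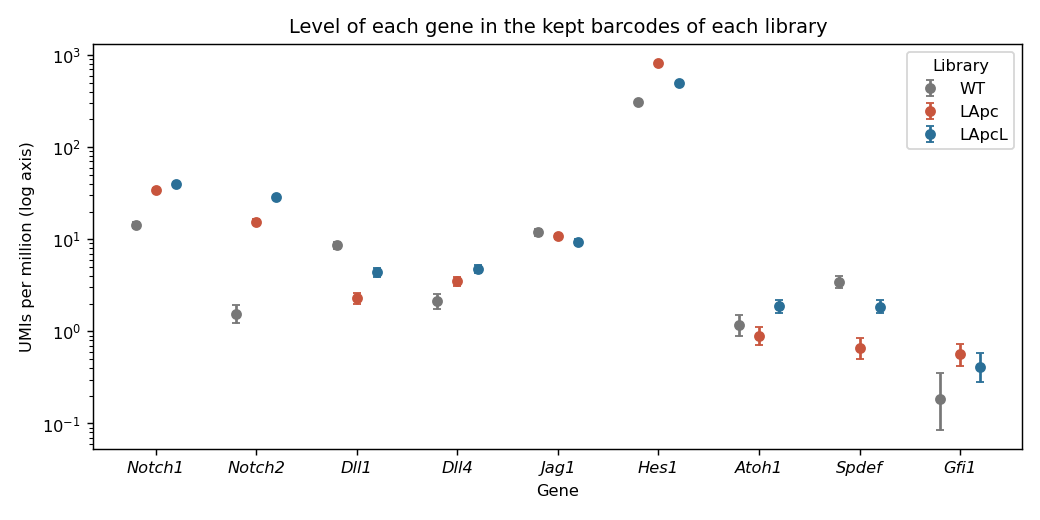
Level of the 9 genes in each library, in CPM on a log axis. Points are sums over the kept barcodes of WT (grey), LApc (red) and LApcL (blue) and bars are exact 95% Poisson intervals. Notch2 is seen at 1.55, 15.6 and 28.5, while Jag1 stays between 9.33 and 11.9.

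LApcL against LApc, the comparison for the Lef1 genotype, gave a log2 ratio of 0.87 (0.77 to 0.97) for Notch2 and 0.20 (0.13 to 0.27) for Notch1. LApc against WT, the comparison for the Apc genotype, gave 3.33 (2.99 to 3.68) and 1.27 (1.15 to 1.39). A typical gene was also higher against WT: the median log2 ratio over all genes tested was 0.53 for LApc against WT and 0.52 for LApcL against WT, and 0.017 for LApcL against LApc. Scaled by median-of-ratios factors in place of total UMIs, the LApc ratios against WT were 2.87 for Notch2 and 0.82 for Notch1.

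The receptors also differed in how many barcodes carried them. With every barcode thinned at random to 10000 UMIs, so that depth is equal, Notch1 was seen in 12.5% of barcodes for WT, 27.9% for LApc and 31.7% for LApcL. Notch2 was seen in 1.82% (1.14 to 2.74), 14.5% (13.0 to 16.0) and 26.5% (24.6 to 28.5). Before thinning the Notch2 shares were 5.71%, 40.9% and 59.0%. As a background, 398 WT barcodes rich in enterocyte markers, with a median of 41560 UMIs, gave 5.78% for Notch1 and 1.01% for Notch2. Few barcodes held many copies, since at equal depth the highest Notch2 count in any barcode was 2 in WT, 3 in LApc and 4 in LApcL.

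Within a library, the receptors were detected almost independently of each other. Both receptors were seen together in 2 barcodes of WT, 97 of LApc and 165 of LApcL, where the product of their separate shares gives 2.75, 87.2 and 163. The ratio of seen to product was 0.73, 1.11 (0.90 to 1.36) and 1.02 (0.87 to 1.18). At least 1 receptor was seen in 14.2%, 37.9% and 49.7% of barcodes. In WT, Notch1 was seen with the stem cell marker Lgr5 1.93 times as often as the product (1.28 to 2.79), and in LApc and LApcL 1.09 times.

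**Figure D2:**
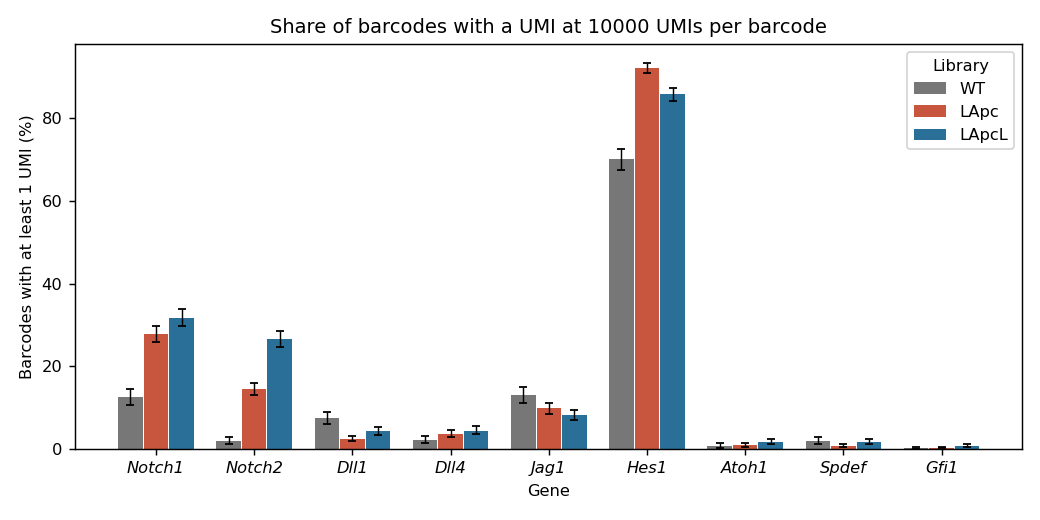
Share of barcodes with at least 1 UMI of each gene, in percent, after thinning to 10000 UMIs per barcode. Bars are WT (grey), LApc (red) and LApcL (blue) with exact 95% binomial intervals. Hes1 is seen in most barcodes of every library and Atoh1, Spdef and Gfi1 in under 2%.

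The Notch2 level also varied with the depth of a barcode. In LApcL it was 44.0 CPM in barcodes of 10000 to 20000 UMIs, 30.5 CPM in the next bin and 24.5 CPM in the deepest. The LApc values in the same bins were 24.8, 14.3 and 15.8 CPM, so LApcL was higher than LApc in each bin. Over the 14 alternative settings the Notch2 log2 ratio of LApcL against LApc stayed between 0.59 and 0.99.

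The 3 ligands differed in their order across the libraries. Dll1 (ENSMUSG00000014773, chromosome 17, 15367354 to 15376872, reverse strand), a ligand of early secretory cells, had 420 UMIs for WT, 208 for LApc and 353 for LApcL, or 8.59, 2.29 and 4.38 CPM. It was highest in WT and lowest in LApc, with log2 ratios of -1.91 (-2.15 to -1.66) for LApc against WT, 0.94 (0.69 to 1.19) for LApcL against LApc and -0.97 (-1.18 to -0.76) for LApcL against WT. Its share at equal depth followed the same order, with 7.37%, 2.41% and 4.30%, but the WT share was close to the 7.04% of the enterocyte-marker barcodes.

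Dll4 (ENSMUSG00000027314, chromosome 2, 119325784 to 119335962, forward strand) had 104, 319 and 385 UMIs, or 2.13 CPM (1.74 to 2.58), 3.51 CPM (3.14 to 3.92) and 4.78 CPM (4.32 to 5.28). LApc against WT gave a log2 ratio of 0.72, but one of 0.24 (-0.10 to 0.58) without the enterocyte-marker barcodes of WT, where the interval included no difference. For LApcL against WT it was 1.17, and 0.68 (0.35 to 1.02) without them. Jag1 (ENSMUSG00000027276, chromosome 2, 137081456 to 137116644, reverse strand) had 583, 979 and 751 UMIs, or 11.9, 10.8 and 9.33 CPM. With total UMIs as the scale, Jag1 differed least of the 9 genes against WT, and its interval for LApc against WT included no difference (log2 ratio -0.15, -0.30 to 0.0042). With median-of-ratios scaling it was lower than WT, at -0.60 for LApc and -0.84 for LApcL.

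Because endothelial cells express several of these genes, the shared barcodes, which carry Pecam1 at 1040.3 to 1071 CPM, show the levels in such cells. In them Dll4 stood at 74.9 to 79.8 CPM and Notch1 at 155 to 164 CPM, while Atoh1 had 0 UMIs in all 3 libraries, which allows up to 0.616 CPM. Whether the shared barcodes held cells of the organoids was not tested, and their values cannot be taken as separate measurements of the genotypes. Pecam1 in the kept barcodes reached 1.60 CPM, in LApc, at most. The part of Flt1- and Cdh5-bearing barcodes in the LApc values was not tested.

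Hes1 (ENSMUSG00000022528, chromosome 16, 30064384 to 30067796, forward strand), the Notch target, had 15056 UMIs for WT, 75144 for LApc and 40506 for LApcL. Its levels were 308 CPM (303 to 313), 827 CPM (821 to 833) and 503 CPM (498 to 508). LApc was the highest of the libraries, WT the lowest, and LApcL lay between them. The log2 ratio was 1.43 (1.40 to 1.45) for LApc against WT and -0.72 (-0.73 to -0.70) for LApcL against LApc. For LApcL against WT it was 0.71 (0.68 to 0.74), beside a median of 0.52 over all genes. That ratio was 0.56 without the enterocyte-marker barcodes and 0.22 with median-of-ratios scaling, so LApcL lay less far above WT there.

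This order held for a typical barcode. At 10000 UMIs the median Hes1 count per barcode was 2 in WT, 6 in LApc and 3 in LApcL, with quartiles of 0 and 4, 2 and 12, and 1 and 6. The highest counts in a barcode were 28, 71 and 59. At least 1 Hes1 UMI was seen in 70.1%, 92.3% and 86.0% of barcodes. The ratio of LApcL against LApc stayed between -0.83 and -0.69 over the alternatives. Both receptors were thus highest in LApcL, whereas Hes1 was highest in LApc.

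The secretory regulators rested on few molecules in few barcodes. Atoh1 (ENSMUSG00000073043, chromosome 6, 64729125 to 64731245, forward strand) had 57 UMIs in 18 barcodes of WT, 81 in 48 of LApc and 150 in 81 of LApcL, or 1.17 CPM (0.883 to 1.51), 0.891 CPM (0.708 to 1.11) and 1.86 CPM (1.58 to 2.19). LApcL was higher than LApc, while the order against WT depended on which barcodes were kept. The log2 ratio of LApcL against WT was 0.68, but -0.38 with a mitochondrial limit of 10%, 0.035 without barcodes of more than 1 marker class and 0.084 (-0.37 to 0.55) without the 398 enterocyte-marker barcodes, which WT alone had. LApc against WT was -0.39, but -1.40 with the limit of 10% and -0.98 (-1.49 to -0.46) without the enterocyte-marker barcodes. Without the goblet and Paneth classes both turned high, at 4.44 for LApcL and 3.82 for LApc, with 2 Atoh1 UMIs left in WT. Spdef (ENSMUSG00000024215, chromosome 17, 27714352 to 27728955, reverse strand) had 168 UMIs in 39 barcodes, 60 in 30 and 149 in 65, or 3.44, 0.660 and 1.85 CPM. Over all kept barcodes Spdef was highest in WT and lowest in LApc, with no overlap. Without the goblet and Paneth classes the log2 ratio of LApcL against WT turned from -0.89 to 0.73, and that of LApc against WT went from -2.38 to -0.25.

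A handful of barcodes carried much of this signal. The 10 barcodes richest in Atoh1 held 86.0% of its UMIs for WT, 46.9% for LApc and 36.7% for LApcL. For Spdef they held 61.9%, 66.7% and 33.6%. At equal depth Atoh1 was seen in 8 of 1208 barcodes (0.662%, 0.286 to 1.30), 18 of 2161 (0.833%, 0.494 to 1.31) and 33 of 1931 (1.71%, 1.18 to 2.39). Of the 398 enterocyte-marker barcodes 0 had an Atoh1 UMI at that depth, which allows a share of up to 0.754% with one, and before thinning they held 1 Atoh1 UMI in all.

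Gfi1 (ENSMUSG00000029275, chromosome 5, 107716657 to 107726036, reverse strand) had 9, 51 and 33 UMIs in 8, 32 and 25 barcodes, or 0.184, 0.561 and 0.410 CPM. For LApcL against LApc the interval included no difference (log2 ratio -0.45, -1.13 to 0.21), but LApcL was lower without the goblet and Paneth classes (-2.98) and without barcodes of more than 1 class (-1.73).

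Against LApc, LApcL was at least 2-fold higher for 2 of the 9 genes, Atoh1 and Spdef, and at least 2-fold lower for 0. Over the 14477 genes with at least 50 UMIs in the pair of libraries, 3.53% were higher and 8.52% lower by that measure (12% in all). The log2 ratio was 1.49 (1.05 to 1.94) for Spdef and 1.06 (0.66 to 1.47) for Atoh1, and the median over the 9 genes was 0.45. The lower limit of the Atoh1 interval was under 2-fold, and Dll1 and Notch2 lay just short of it. With the mitochondrial limit dropped, or the floor raised to 20000 UMIs, Spdef alone passed, and with a limit of 10% 3 genes did, Dll1 being the other, at 1.04. Without the goblet and Paneth classes 0 of the 9 did, with Spdef at 0.98 and Atoh1 at 0.61, and in barcodes of no class the Spdef interval included no difference (-0.16 to 2.20).

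Against WT, LApc was at least 2-fold higher for 4 of 9 genes (Notch1, Notch2, Hes1 and Gfi1) and lower for 2 (Dll1 and Spdef). Of 14617 genes, 30.6% were higher and 12.4% lower (43% in all). Without the enterocyte-marker barcodes of WT 2 were higher, Notch2 and Hes1, with Notch1 at 0.93 and Gfi1 at 0.99 (-0.046 to 2.20). With a mitochondrial limit of 10% Gfi1 was at 0.52 and no longer past 2-fold, and Atoh1, at -1.40, was a lower gene besides Dll1 and Spdef. With median-of-ratios scaling 2 were higher, Notch2 and Gfi1, with Hes1 at 0.97. LApcL against WT had 8 genes with enough UMIs, of which 3 were at least 2-fold higher (Notch1, Notch2 and Dll4) and 0 lower, beside 30.7% and 13.9% of 14079 genes (44.6% in all). With median-of-ratios scaling 1 was higher, Notch2 at 3.71. Dll4, at 1.17, fell short of 2-fold in that setting (0.68), without the enterocyte-marker barcodes (0.68) and with a mitochondrial limit of 10% (0.47). In each of these settings Dll1 and Spdef were lower by at least 2-fold. The comparisons share libraries and are not independent.

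**Figure D3:**
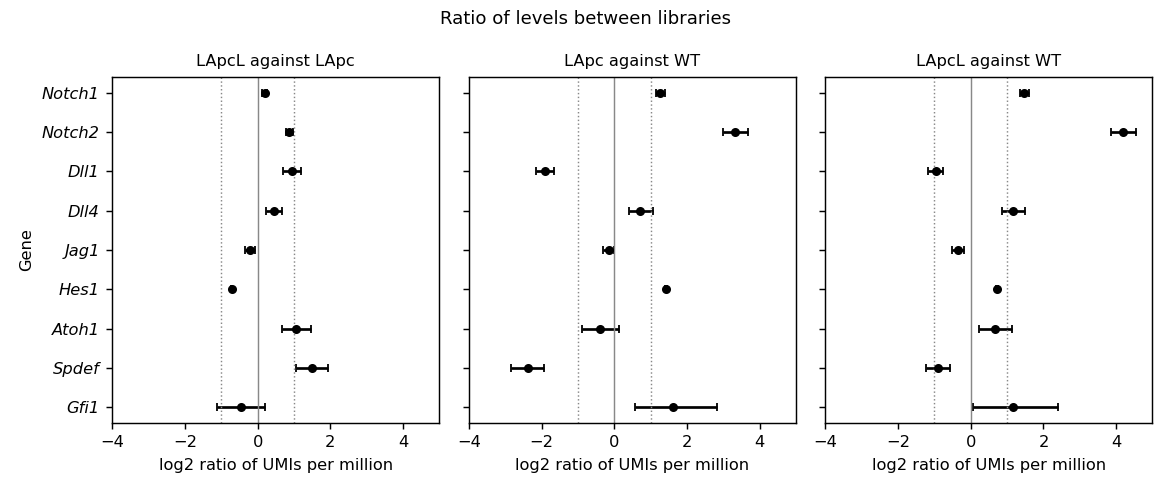
Log2 ratio of levels for each pair of libraries. Points are the 9 genes, bars exact 95% conditional binomial intervals, the solid line no difference and the dotted lines a 2-fold difference. Spdef and Atoh1 lie past 2-fold for LApcL against LApc, and Notch2 at 3.33 and 4.20 against WT. Gfi1 has the widest intervals and rested on 42 UMIs for LApcL against WT.

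To see which cells carried the regulators, barcodes were put in marker classes by their UMIs at equal depth: goblet (at least 50 UMIs of 6 markers such as Muc2), Paneth (50 of 7, such as Lyz1), enteroendocrine (20 of 8, such as Chga), tuft (20 of 8) and enterocyte (100 of 7, such as Fabp1). A class is a range of a score and not a cell type, and a barcode may be in several. The goblet class had 39 barcodes for WT, 33 for LApc and 77 for LApcL. With its floor lowered by a factor of 2 it would have had 45, 46 and 93, and raised by that factor 36, 25 and 56. The Paneth class had 5, 59 and 79, with 8, 74 and 84 at the lower floor and 4, 43 and 76 at the higher one, so LApc had more of its Paneth-class barcodes near the floor than LApcL. In both classes were 5, 27 and 65 barcodes. The enteroendocrine class had 37, 5 and 3, the enterocyte class 398, 0 and 0, and no class took in 741, 2094 and 1839. The marker levels that set the classes differ between the libraries themselves. No doublet caller was run. Without barcodes in more than 1 class, the log2 ratios of LApcL against LApc were 1.16 for Spdef, 0.55 for Atoh1 and -1.73 for Gfi1.

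Within the goblet class the Atoh1 levels of the 3 libraries overlapped in their intervals. They were 40.1 CPM (30.2 to 52.2) for WT, 29.4 (19.5 to 42.5) for LApc and 33.4 (26.5 to 41.7) for LApcL, and LApcL against LApc gave a log2 ratio of 0.19 (-0.45 to 0.86). Spdef in the class was 117 CPM (100 to 137) for WT, 50.4 (37.1 to 66.8) for LApc and 53.3 (44.4 to 63.5) for LApcL. So Spdef was lower in both Apc-targeted libraries than in WT, with log2 ratios of -1.22 (-1.72 to -0.75) and -1.14 (-1.49 to -0.79), while between LApcL and LApc it was 0.082 (-0.41 to 0.59). Both goblet-class intervals for LApcL against LApc included no difference, with 77 barcodes of 1931 in the class for LApcL and 33 of 2161 for LApc. Of the goblet-class barcodes, 5 of 39 in WT, 27 of 33 in LApc and 65 of 77 in LApcL were also in the Paneth class. The make-up of the class thus differed between WT and the Apc-targeted libraries. The Paneth class, of which LApc had 27 of 59 barcodes also in the goblet class and LApcL 65 of 79, gave another picture: LApcL was higher than LApc for Atoh1, at 27.1 against 8.85 CPM (log2 ratio 1.62, 0.81 to 2.51), and for Spdef, at 43.2 against 22.7 CPM (0.93, 0.39 to 1.49). In barcodes of either class the log2 ratios were 1.02 (0.38 to 1.70) for Atoh1 and 0.93 (0.45 to 1.44) for Spdef. In barcodes of no class Atoh1 was at 0.597 and 0.913 CPM, a log2 ratio of 0.61 (0.080 to 1.16).

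**Figure D4:**
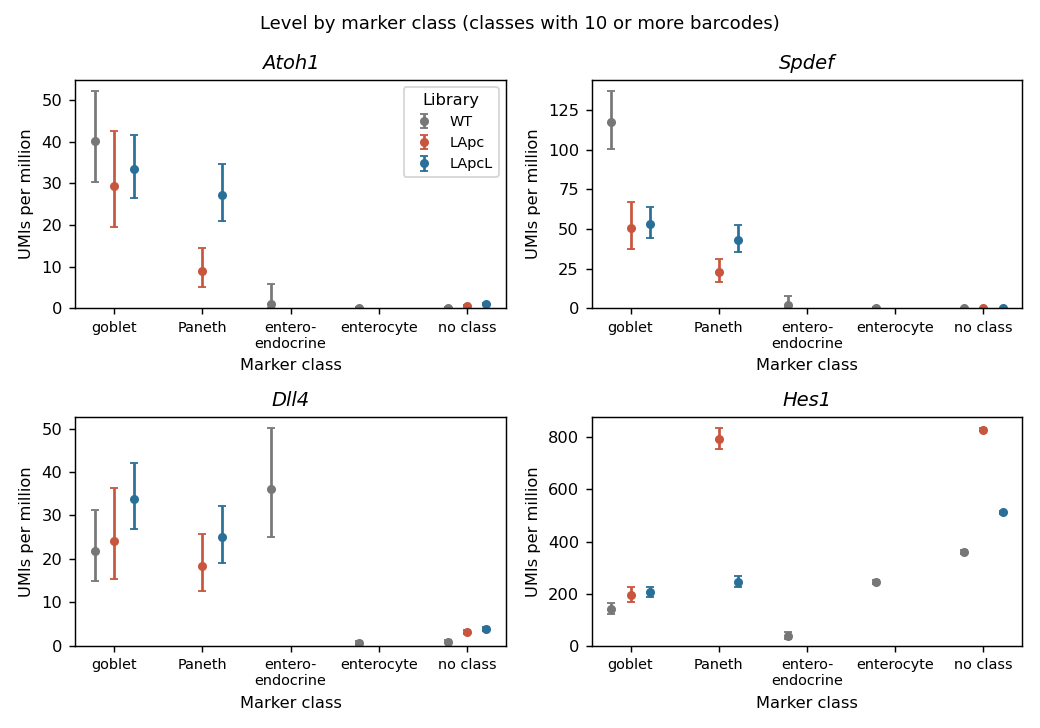
Levels of Atoh1, Spdef, Dll4 and Hes1 by marker class, in CPM, for classes of at least 10 barcodes in WT (grey), LApc (red) and LApcL (blue), with exact 95% Poisson intervals. The goblet and Paneth classes share barcodes. Hes1 is seen at 141 to 206 in the goblet class and at 360 to 829 in barcodes of no class.

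Most Spdef molecules came from the goblet class, with 95.8% of its UMIs for WT, 80.0% for LApc and 84.6% for LApcL. For Atoh1 the shares were 96.5%, 34.6% and 52.7%. Gfi1 had 8 of 9, 15 of 51 and 28 of 33 UMIs there. The Gfi1 UMIs of LApc lay mostly in barcodes of no class, 36 of them, against 4 in LApcL.

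Paneth-class barcodes that were not in the goblet class were different. LApc had 32 of them and LApcL 14, and Atoh1 had 0 UMIs in both, which allows up to 2.92 CPM in LApc and 7.74 in LApcL. Hes1 stood at 1249 CPM (1181 to 1319) in those of LApc and at 397 CPM (337 to 465) in those of LApcL. Dll4 had 15 UMIs and 2 UMIs in them, and Dll1 had 0 in both.

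Dll4 was higher in the secretory classes than in barcodes of no class. In WT it stood at 21.9 CPM (14.8 to 31.3) in the goblet class and 36.0 CPM (25.1 to 50.1) in the enteroendocrine class, against 0.941 CPM (0.625 to 1.36) in barcodes of no class. In LApc and LApcL the goblet class had 24.1 and 33.9 CPM and barcodes of no class 3.14 and 3.90. For LApc against WT the log2 ratio was 1.74 (1.18 to 2.36) in barcodes of no class and 0.14 (-0.71 to 0.97) in the goblet class, where the interval included no difference. Dll1 was less bound to a class, at 19.7, 8.40 and 13.1 CPM in the goblet class and 8.87, 2.22 and 4.14 CPM in no class.

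Hes1 was lower in the goblet class (141, 194 and 206 CPM) than in barcodes of no class (360, 829 and 513 CPM) in each library, and lowest, among classes of at least 10 barcodes, in the WT enteroendocrine class, with 38.1 CPM (26.8 to 52.5). In the Paneth class the libraries differed: Hes1 was at 795 CPM in LApc, where the log2 ratio to barcodes of no class was -0.060 (-0.14 to 0.015), and at 245 CPM in LApcL, where it was -1.06 (-1.18 to -0.94). Within the goblet class LApcL and LApc gave a log2 ratio of 0.083 (-0.16 to 0.34), whereas in barcodes of no class it was -0.69 (-0.71 to -0.68). These intervals did not overlap. Notch1 was lower in the goblet class of LApc and LApcL too, at 14.7 and 19.5 CPM against 34.8 and 40.4 in no class. Notch2 was lower there in LApcL (log2 ratio -1.24, -1.82 to -0.72), while in LApc it rested on 9 UMIs and its interval included no difference (-0.74, -1.87 to 0.19).

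Barcodes that carried Atoh1 outside every class were singled out after the values had been seen. There were 2 in WT, 39 in LApc and 53 in LApcL, with 2, 53 and 71 Atoh1 UMIs, and 0, 8 and 11 of them held more than 1. Their summed goblet markers had medians of 1 UMI in LApc and 0 in LApcL, and Spdef had 0 and 1 UMIs in them. The goblet marker Tff3 was seen at equal depth in 41.0% of them (25.6 to 57.9) against 14.6% (13.1 to 16.3) of other barcodes of no class in LApc, and in 28.3% (16.8 to 42.3) against 11.6% (10.1 to 13.2) in LApcL. Muc2, another goblet marker, was seen in 2.56% (0.065 to 13.5) against 1.80% (1.27 to 2.47) in LApc. In LApcL it was seen in 1.89% (0.048 to 10.1) against 0.952% (0.555 to 1.52), and the intervals overlapped in both libraries. At equal depth the LApc barcodes of this kind had Lgr5 in 41.0% (25.6 to 57.9), against 22% (20.2 to 23.8) of other barcodes of no class, and Ascl2, a stem cell transcription factor, in 61.5% against 35.6%. In LApcL the Lgr5 shares were 62.3% (47.9 to 75.2) and 53.1% (50.7 to 55.4). Of the division genes, Top2a was seen in 51.3% against 27.3% in LApc and 50.9% against 42.7% in LApcL. For Mki67 the shares were 41.0% against 25.9% and 54.7% against 45.1%. Dll4 was seen in 15.4% against 3.07% in LApc and in 13.2% against 3.19% in LApcL. The median Hes1 count was 3 against 6 in LApc and 3 against 3 in LApcL. Barcodes with Atoh1 were deeper than the others, with medians of 44812 against 34643 UMIs in LApc and 53430 against 32734 in LApcL.

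Pairs of the genes were then counted in the same barcode at 10000 UMIs and set against the product of their shares. The secretory regulators were seen together far more often than that product. Atoh1 and Spdef were seen together in 5 barcodes of WT, 3 of LApc and 8 of LApcL, where the product gives 0.159, 0.133 and 0.581. The ratios were 31.5 (10.2 to 73.4), 22.5 (4.64 to 65.8) and 13.8 (5.94 to 27.1). Gfi1 and Spdef were seen together in 1, 2 and 5 barcodes, and all 3 regulators in 1, 1 and 2.

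Dll4 was seen with the regulators as well. The ratio for Dll4 and Atoh1 was 11.6 (1.41 to 42.0) in WT, 6.16 (1.68 to 15.8) in LApc and 6.88 (3.30 to 12.7) in LApcL, from 2, 4 and 10 barcodes. The LApc value rested on few barcodes and was 0 with a second random thinning. Without thinning it was 9.42, 3.83 (2.37 to 5.85) and 3.18, from 8, 21 and 35 barcodes. In WT Dll4 was also seen with the enteroendocrine hormone-granule gene Chga 12.2 times as often as the product (5.86 to 22.5), and in 0 barcodes with the division gene Mki67, where the product gives 5.98.

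For the pairs of a receptor with Spdef, counts fell below the product in LApcL. Notch1 and Spdef gave 0.67 (0.081 to 2.41) in WT, 0.67 (0.14 to 1.97) in LApc and 0.37 (0.10 to 0.95) in LApcL. Notch1 and Atoh1 gave 0.38 (0.10 to 0.98) in LApcL, and Notch2 and Spdef 0.22 (0.027 to 0.80) in LApcL. For Notch1 and Atoh1 in LApcL the value without thinning was 0.91 (0.67 to 1.20), so this pair depended on the thinning. Notch1 and Spdef stayed lower there, at 0.53 (0.34 to 0.80). At equal depth in LApcL, Notch2 and Atoh1 gave 0.46 (0.12 to 1.17), and the pairs of a receptor with Gfi1 rested on 1 barcode each.

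**Figure D5:**
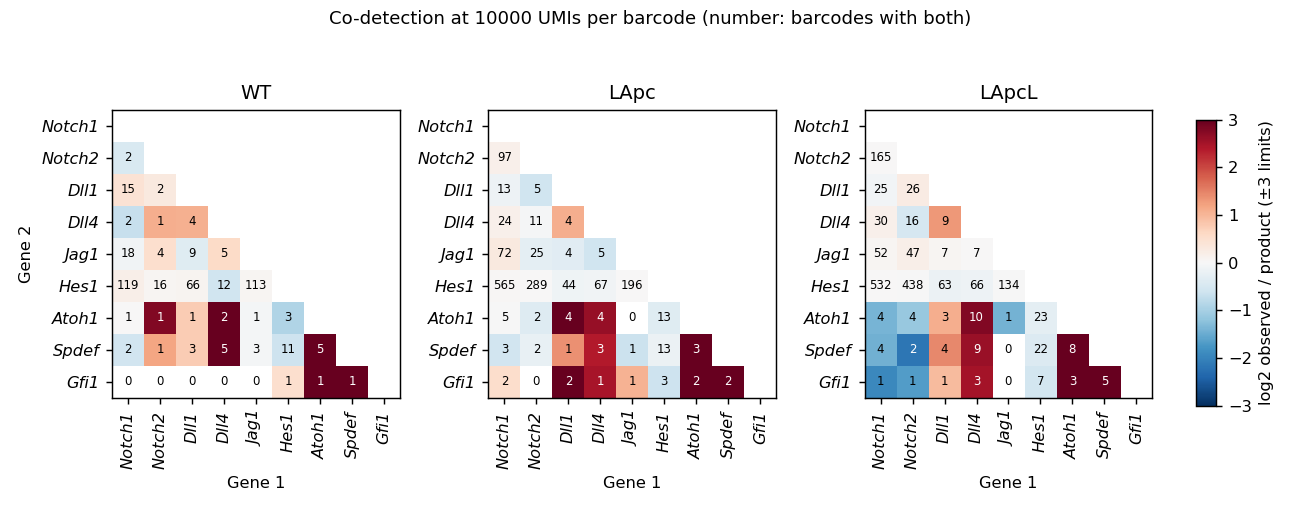
Co-detection of gene pairs at 10000 UMIs per barcode, 1 panel per library. Colour is log2 of the barcodes with both genes over the product of their shares, with limits at 3 and -3, and the number is the count of barcodes with both. Cells are blank where that count is 0. Red cells join Dll4, Atoh1, Spdef and Gfi1 in LApc and LApcL, and blue cells join the receptors with Atoh1, Spdef and Gfi1 in LApcL.

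Hes1 was lower in barcodes with Atoh1. Its median count at equal depth was 0 in the 8 WT barcodes with Atoh1 and 2 in the rest, 2.5 in the 18 of LApc and 6 in the rest, and 1 in the 33 of LApcL and 3 in the rest. Hes1 and Atoh1 were still seen together in 3, 13 and 23 barcodes, with ratios of 0.54 (0.11 to 1.56), 0.78 (0.42 to 1.34) and 0.81 (0.51 to 1.22), whose intervals all include 1. A receptor and a ligand were seen in the same barcode in 3.31%, 5.88% and 7.92% of barcodes. At least 1 receptor was seen in 14.2%, 37.9% and 49.7% and at least 1 ligand in 20.9%, 15.2% and 15.6%, so the joint share rose with the receptor share.

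Detection of other genes was also compared with that of the 9, by the phi coefficient, averaged over libraries with at least 20 barcodes that carried the gene. Tpsg1, Muc2 and Ern2 were most like Spdef, at 0.618, 0.580 and 0.535 over WT and LApcL. The genes most like Dll4 over all 3 libraries were 5330417C22Rik, Hepacam2 and Kit, at 0.220, 0.196 and 0.194. Habp2, Reg4 and Tpsg1 were most like Atoh1, at 0.293, 0.289 and 0.284 in LApcL alone. For the receptors, Dll1, Jag1 and Hes1 no gene passed 0.103, and Gfi1 was in too few barcodes. Cells of a library share its depth and RNA background, so these are descriptions.

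The rest of the pathway was read from gene lists. Of the 4 Notch receptors, 3 were at least 2-fold higher in LApc than in WT, namely Notch1, Notch2 and Notch3, with a median log2 ratio of 2.30 beside the 0.53 of all genes. Of all genes 30.6% were higher and 12.4% lower in that comparison. Notch3 had 7, 379 and 338 UMIs and Notch4 was at 0.941, 1.11 and 0.969 CPM. Between LApcL and LApc 0 of the 4 passed 2-fold, where 12% of all genes did in either direction. Of the 6 ligands with enough UMIs, Jag2 and Dll3 were higher and Dll1 and Dner lower in LApc than in WT, with Jag2 at 4.50, 12.4 and 11.8 CPM. Dner, a non-canonical ligand, had 62, 50 and 0 UMIs, and the 0 allowed a ratio of LApcL to LApc of up to 0.0864 at the 95% level.

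The enzymes that cut or modify the receptors were higher in LApc than in WT for 4 of 9 cleavage genes and 3 of 5 glycosylation genes, with 0 and 1 lower, beside 30.6% and 12.4% of all genes. Lfng, a glycosyltransferase that tunes which ligand a receptor answers to, was at 0.900, 15.7 and 22.3 CPM. Pofut1, which adds the first sugar, was lower, at 44.3, 10.1 and 12.2 CPM. Of 13 genes of endocytosis and turnover 4 were higher and 2 lower, shares near those of all genes, Neurl1a the highest, with 12, 1314 and 1160 UMIs. Between LApcL and LApc 0 genes of these 3 lists passed 2-fold, beside 12% of all genes, and Dtx4 came nearest, at 14.8 and 26.9 CPM.

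Of the 15 nuclear genes of the pathway, 6 had a higher level in LApc than in WT and 0 a lower one, beside 30.6% and 12.4% of all genes, and 0 passed 2-fold between LApcL and LApc, beside 12% of all genes. Rbpj was at 20.5, 51.1 and 48.9 CPM, and the coactivator Maml2 had 2, 364 and 431 UMIs. Of 7 genes listed as Notch targets, 4 were higher in LApc than in WT (Hes1, Hes5, Hes6 and Hey1) and 2 lower (Hes7 and Olfm4). The targets had a median log2 ratio of -0.72 for LApcL against LApc, which is the value of Hes1 itself, beside 0.017 over all genes. Hes6 was lower too (-0.93), Hes5 (0.80) and Nrarp (0.20) were higher, and the Hes7 interval included no difference (0.049, -0.68 to 0.77). Hey1, at 1.83 and 0.373 CPM, and Olfm4, at 0.627 and 0.0994 CPM, were more than 2-fold lower, as were 8.52% of all genes. Of the 57 Olfm4 UMIs of LApc 44 lay in 1 barcode, as did 6 of the 8 of LApcL. Hes6, which acts against Hes1 and is often described as independent of Notch, stood in the same order, with 65.7 CPM for WT, 450 for LApc and 235 for LApcL, and Hes5 did not, with 8, 50 and 77 UMIs. Nrarp, a feedback inhibitor of Notch, was at 7.63, 7.65 and 8.76 CPM.

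Of 16 secretory regulators with enough UMIs, 3 were at least 2-fold higher in LApcL than in LApc: Atoh1, Spdef and Bhlha15, a factor of secretory cell maturation that stood at 0.900, 1.61 and 3.94 CPM. Creb3l1 and Foxa2 were lower. Of all genes 3.53% were higher and 8.52% lower. Creb3l1 was at 5.71, 5.17 and 2.51 CPM. Sox9 was at 69.9, 185 and 223 CPM, Klf4 at 104, 150 and 215, Foxa3 at 10.2, 40.6 and 41.2, and Xbp1 at 115, 94.9 and 63.7. The enteroendocrine factors Neurog3 and Neurod1 were highest in WT, with 4.42, 1.65 and 1.64 CPM and 16.7, 0.275 and 0.273 CPM, although 1 barcode held 82 of 216, 80 of 150 and 57 of 132 Neurog3 UMIs. The tuft factor Pou2f3 had 19, 70 and 34 UMIs, and Gfi1b 0, 9 and 1.

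The products of secretory cells were higher in LApcL than in LApc for 6 of 10 genes, Ang4, Defa17, Defa24, Muc2, Spink4 and Tff3, with a median log2 ratio of 1.05, and lower for Chga, Chgb and Fcgbp. A single barcode held 961 of the 1017 Chgb UMIs of LApc and 123 of the 139 of LApcL, and 69 of 102 and 18 of 29 for Chga. The 10 richest barcodes held 81.1% of the Defa24 and 79.1% of the Defa17 UMIs of LApc, against 36.1% and 35.0% in LApcL. Lyz1, the Paneth cell lysozyme, was at 317 CPM in LApc and 218 in LApcL (log2 ratio -0.54, -0.57 to -0.51). Of all genes 3.53% were higher and 8.52% lower. Against WT, LApc had 4 of 12 products higher (Ang4, Defa17, Defa24 and Lyz1) and 8 lower, beside 30.6% and 12.4% of all genes. In sums over a library, more cells of a kind and more RNA per cell cannot be told apart.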

How the data were processed

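Single-cell RNA-seq libraries of WT, LApc and LApcL organoids, 1 per group, were analysed. The authors deposited whole-number UMI counts per gene and barcode, with no normalisation, from 10x Chromium 3′ libraries aligned to mm10. The file headers name Cell Ranger 6.0.1, and the submitters' processing notes name version 2.1.1. The counts read 3′ ends and do not show whether a floxed exon was lost.

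Barcodes found in more than 1 library, under 10000 UMIs or over 20% mitochondrial UMIs (13 genes) were left out. The last limit took out 428, 295 and 261 deep barcodes (26.0%, 12.0% and 11.9%), and kept barcodes had median mitochondrial shares of 10.5%, 5.64% and 6.39%. Levels are UMIs summed over kept barcodes, scaled to 1e6. Ratios are log2 of CPM with no pseudocount, and 50 UMIs over both libraries were required to count a gene as past 2-fold. Counts of 0 were set at 3 counts. Shares and co-detection used 1 seeded thinning to 10000 UMIs. Intervals are exact at 95% (Poisson, conditional binomial, Clopper-Pearson) and cover counting error only. There was no test and no p-value, since each group had 1 library. The ratio and thinning steps were tested on simulated data. Python 3.11.15, numpy 2.4.6, scipy 1.17.1 and pandas 2.3.3 were used.

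The genes and lists were chosen with earlier results of these data known. Besides the 9 genes, the text names the highest and lowest gene of each list where they matter, fixed reference genes and the 3 genes most alike in detection. The log2 ratios were recomputed under 14 other settings of the filters, scaling, pseudocount and classes. Promoter windows and gene positions are on GRCm38.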

Additional observations from a re-analysis of the deposited data

Results flagged for a closer look

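The values here come from barcodes that the comparisons left out, those found in all 3 libraries with at least 1000 UMIs and at most 20% mitochondrial UMIs. They numbered 2807 in WT, 2266 in LApc and 2387 in LApcL, with medians of 2395, 1896 and 1980 UMIs, and carried endothelial Pecam1 in 58.6% to 62.1% at 1000 UMIs. The values given are those whose interval lay, at its lower end, more than 2-fold above the upper end for the kept barcodes of WT and of the same library.

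The same barcode sequences recurred in every library, so values given by library cannot be taken as separate measurements of the genotypes. Whether these barcodes held cells of the organoids was not tested. In these barcodes Notch1 stood at 164 CPM for WT, 155 for LApc and 162 for LApcL, and Dll4 at 79.8, 74.9 and 79.4 CPM. Jag1 stood at 52.4, 44.3 and 52.7 CPM and Dll1 at 34.6, 31.6 and 28.9 CPM. Notch2 stood at 20.1, 25.5 and 22.8 CPM. It met this mark in WT alone, where the kept barcodes had 1.55 CPM, against 15.6 in LApc and 28.5 in LApcL. The kept WT barcodes had 14.3 CPM of Notch1, 2.13 of Dll4, 11.9 of Jag1 and 8.59 of Dll1. Hes1 did not meet it, at 353, 350 and 344 CPM. Atoh1 had 0 UMIs in the shared barcodes of each library, Spdef 1, 0 and 0, and Gfi1 0, 1 and 0.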

How the results depend on the processing

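No paired analysis was possible because each group had 1 library. Of the 126 log2 ratios per comparison over 14 settings, 106 moved by less than the counting interval for LApcL against LApc, 82 for LApc against WT and 86 for LApcL against WT. For LApcL against LApc, leaving out the enterocyte class could not move any of the 9 ratios, since neither library had such barcodes. For LApcL against LApc, the count of genes at least 2-fold higher was 2. It was 3 with a mitochondrial limit of 10% (Dll1 added), and it was 1 with no mitochondrial limit, 1 with a floor of 20000 UMIs and 1 without barcodes of more than 1 class (Spdef each time). It was 0 without the goblet and Paneth classes and 0 on the log2 of CPM + 1 or CPM + 10 scale. Without barcodes of more than 1 class, 1 gene was lower (Gfi1). Over all genes, 1744 of 14477 passed 2-fold in either direction, and 1062 (8.58%) of those with at least 200 UMIs. For LApc against WT, 4 genes were higher, and 2 without the enterocyte class (Notch2 and Hes1), with median-of-ratios scaling or with CPM + 10. With the 10% limit Gfi1 was no longer higher and Atoh1 was lower. Of the 2 lower, 1 was left without the goblet and Paneth classes and 0 with CPM + 10. For LApcL against WT, 3 were higher, and 1 with median-of-ratios scaling. Dll4 passed 2-fold in neither that setting nor without the enterocyte class. Its count of lower genes was 0, and 2 (Dll1 and Spdef) with a mitochondrial limit of 10%, a floor of 5000 UMIs, no enterocyte class, median-of-ratios scaling or a total without mitochondrial and ribosomal protein genes, and 1 with a floor of 20000 UMIs or without barcodes of more than 1 class.

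Against WT, the LApcL log2 ratio of Atoh1 turned from 0.68 to -0.38 with the 10% limit, and that of Spdef from -0.89 to 0.73 without the goblet and Paneth classes. WT had 2.49 CPM of Atoh1 in barcodes with at most 10% mitochondrial UMIs and 0.145 in the others. Co-detection ratios became 0 at 5000 UMIs for Dll1-Atoh1, Dll1-Gfi1 and Atoh1-Gfi1 in LApc and for Dll4-Gfi1 and Atoh1-Gfi1 in LApcL, and with a second seed for Dll4-Atoh1 and Dll4-Spdef in LApc. Apart from the settings that leave barcodes or molecules out, the cause of these shifts was not tested. Atoh1, Spdef and Gfi1 rested on at most 168 UMIs in a library, and in WT Notch2 rested on 76 and Dll4 on 104.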
